A study of Mus musculus with 2 samples.

Results

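The miR-181 family of the mouse consists of 6 microRNA (miRNA) genes in 3 clusters of 2 genes each, and all 6 were among the 1973 miRNA genes counted. The members were taken by name: Mir181a-1 and Mir181b-1 on chromosome 1, Mir181a-2 and Mir181b-2 on chromosome 2, and Mir181c and Mir181d on chromosome 8. They were measured by microRNA-seq of total RNA, with small RNAs of under 30 nucleotides selected, in hindbrain tissue of newborn mice (strain B6NCrl, age 0 days). A hindbrain from each of 2 pups, pup 1 (replicate 1) and pup 3 (replicate 2), gave 1 library apiece, and these made up the only group. No genotype, treatment or second tissue was compared, sex was not recorded, and the labels gave both pups the same donor identifier. Tissue was used whole, so fewer cells of a type and less RNA per cell cannot be told apart.

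A miRNA gene is transcribed into a hairpin precursor, from which a mature strand of the 5′ arm (5p) or the 3′ arm (3p) is loaded into the silencing complex. Bases 2 to 8 of the mature strand, the seed, direct it to matching sites in messenger RNAs. The miR-181 miRNAs are best known for setting the sensitivity of T cell receptor signalling in thymocytes. In the brain they are known from neurons, where miR-181a represses the glutamate receptor subunit GluA2, and miR-181c has been linked to activity-regulated dendrite growth.

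The mature 5p sequences are shown first because their overlap decides which genes the counts can tell apart. They come from RefSeq on GRCm38.p6, where all 6 genes had mature sequences, and capitals mark the seed.

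miR-181a-5p, of Mir181a-1 and Mir181a-2: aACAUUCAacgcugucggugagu

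miR-181b-5p, of Mir181b-1 and Mir181b-2: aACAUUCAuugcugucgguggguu

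miR-181c-5p, of Mir181c: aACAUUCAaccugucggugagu

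miR-181d-5p, of Mir181d: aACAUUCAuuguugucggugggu

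All 4 sequences shared the seed ACAUUCA, and among 1058 genes with mature sequences in the RefSeq table no gene outside these 6 carried it at bases 2 to 8. They fell into 2 pairs by the bases after the seed. Counting from 1 at the 5′ end, miR-181b-5p differed from miR-181a-5p by A9U, C10U and A21G and was 1 base longer. Next to miR-181b-5p, miR-181d-5p carried C12U and ended 1 base earlier. One base was missing in miR-181c-5p relative to miR-181a-5p, an edit distance of 1, against 5 from miR-181b-5p.

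The 3p strands separated the copies that the 5p strands did not. None of the 6 was given for a second gene, and they carried 4 seeds, again in capitals.

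miR-181a-1-3p: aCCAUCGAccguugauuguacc

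miR-181a-2-3p: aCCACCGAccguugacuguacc

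miR-181c-3p: aCCAUCGAccguugaguggacc

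miR-181b-1-3p: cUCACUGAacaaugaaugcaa

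miR-181b-2-3p: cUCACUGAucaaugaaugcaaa

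miR-181d-3p: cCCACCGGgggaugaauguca

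Relative to miR-181a-1-3p, the strand of the other copy carried U5C and U16C, the first of them inside the seed, and miR-181c-3p carried U16G and U19G. The 3p strands of Mir181b-1 and Mir181b-2 differed by A9U over their common length and shared their seed.

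The precursors of the copies show how far the identity reaches, with the shared 5p strand in capitals.

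Mir181a-1: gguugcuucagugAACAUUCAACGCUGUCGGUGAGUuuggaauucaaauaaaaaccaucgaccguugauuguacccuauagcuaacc

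Mir181a-2: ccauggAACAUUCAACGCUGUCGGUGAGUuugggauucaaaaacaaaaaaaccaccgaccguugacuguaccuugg

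Mir181b-1: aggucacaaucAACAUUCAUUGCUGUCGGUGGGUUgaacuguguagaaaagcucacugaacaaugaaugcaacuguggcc

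Mir181b-2: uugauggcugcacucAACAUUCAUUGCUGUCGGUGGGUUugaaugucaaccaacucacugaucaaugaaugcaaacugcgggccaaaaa

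Between the miR-181a copies the identical stretch was 28 bases long, with 1 shared base before the 5p strand and 4 after it. Between the miR-181b copies it was 26 bases long, with 2 shared bases before and 0 after, so that the first base past the annotated 3′ end was G in Mir181b-1 and U in Mir181b-2. Precursor length was 72 to 89 bases in the 5 members with a RefSeq hairpin (not Mir181c), against a median of 79 over 1005 hairpins. Their predicted folding energies ran from -33.2 kcal/mol for Mir181b-2 to -27.1 kcal/mol for Mir181d. All but that of Mir181b-2 were weaker than the median of -32 kcal/mol, that of Mir181b-1 only slightly (-31.9 kcal/mol).

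Reads that matched several genomic places were tallied apart from genes, at 37.9% of the reads in the table of pup 1 and 39.4% in that of pup 3. A read within the identical stretch of the copies, 28 bases for miR-181a and 26 for miR-181b, matches 2 of these genes. A read of just the annotated miR-181a-5p or miR-181b-5p is of this kind. With small RNAs of under 30 nucleotides selected, reads can be little longer than these stretches. The annotated strands of Mir181c and Mir181d were each given for 1 gene. The counts of Mir181a-1, Mir181a-2, Mir181b-1 and Mir181b-2 are therefore of reads that could be placed at 1 locus, and leave out an unknown number placed at several. The tables do not separate 5p from 3p reads, and the share lost at each gene was not tested. That share may differ between genes, so levels and ratios of the members compare counted reads only.

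On GRCm38, Mir181a-1 (ENSMUSG00000065565.1) lies on chromosome 1, 137966455 to 137966541, plus strand, and Mir181b-1 (ENSMUSG00000065458.1) at 137966639 to 137966718, with 97 bases between them. Both are in an intron of the noncoding gene Gm4258, and both overlap an exon of the long noncoding RNA A430106G13Rik. Mir181a-2 (ENSMUSG00000065423.1) lies on chromosome 2, 38852735 to 38852810, plus strand, and Mir181b-2 (ENSMUSG00000065578.1) at 38853830 to 38853918, 1019 bases further on. Neither has an annotated gene around it on its own strand, and on the opposite strand both lie in an intron of Nr6a1, a nuclear receptor gene. Mir181c (ENSMUSG00000065483.1) lies on chromosome 8, 84178873 to 84178961, minus strand, and Mir181d (ENSMUSG00000076338.1) at 84178716 to 84178787, with 85 bases between them, in an intron of the germ cell gene Nanos3. The position of Mir181c is that of version 2 of its identifier, since the annotation used here holds no version 1. Opposite-strand counts were 0 for all 6 genes in both pups.

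Levels are in CPM, counts on a gene's own strand per 1000000 such counts of its library. Library totals were 4906127 counts in pup 1 and 6238680 in pup 3, and means are given with SD over n = 2 pups. Detection meant 2 CPM in both pups, which 407 genes (20.6%) reached. A level set against that of another miRNA also carries how well each sequence was ligated and amplified.

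The family as a whole took nearly the same part of both libraries, 21688 CPM in pup 1 and 20300.1 in pup 3, or 20994 ± 982 CPM. All 6 genes were detected. Mir181c, the highest, had 668 times the CPM of Mir181b-1, the lowest, in pup 1 and 3128 times in pup 3, where Mir181b-1 had 22 counts. Most of the counts came from chromosome 8, whose cluster reached 16260 CPM in pup 1 and 14718 in pup 3, or 73.7% ± 1.75 of the family. The cluster on chromosome 1 followed at 4280 and 5217 CPM, 22.7% ± 4.22 of the family. Chromosome 2 contributed 1148 CPM in pup 1 and 365 in pup 3, 3.55% ± 2.47 of the family. The clusters kept this order in each pup and their values did not overlap. Counts on chromosomes 1 and 2 leave out reads placed at several loci, while the annotated strands on chromosome 8 each belong to 1 gene. The shares are therefore of counted reads and may overstate chromosome 8, and by how much was not tested.

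Mir181c stood at 11021 CPM in pup 1 and at 11029 in pup 3 (mean 11025 ± 6.04 CPM), from 54069 and 68808 counts. It ranked 22nd and 17th among all counted miRNA genes, the highest of the family in both pups. Its neighbour Mir181d stood at 5240 CPM in pup 1 and at 3689 in pup 3 (mean 4464 ± 1097 CPM).

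Mir181a-1 stood at 4263 CPM in pup 1 and at 5213 in pup 3 (mean 4738 ± 672 CPM), overlapping the range of Mir181d. The order of these neighbours in level turned between the pups, with a ratio of Mir181a-1 to Mir181d of 0.814 in pup 1 and 1.41 in pup 3. Mir181b-1, 97 bases downstream of Mir181a-1, had 81 counts (16.5 CPM, exact Poisson 95% interval 13.1 to 20.5) in pup 1. In pup 3 it had 22 counts (3.53 CPM, 2.21 to 5.34). It was the lowest member, at 10.02 ± 9.18 CPM.

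On chromosome 2 the order was the other way round, the gene of the b type being the higher. Mir181b-2 stood at 1008 CPM in pup 1 and at 267 in pup 3 (mean 638 ± 524 CPM). Mir181a-2 stood at 140 CPM in pup 1 and at 97.9 in pup 3 (mean 119 ± 30.1 CPM). The values of Mir181b-2 lay above both values of Mir181a-2, and those of Mir181a-2 above both of Mir181b-1. Apart from Mir181a-1 and Mir181d, no neighbours in the order of levels overlapped. Poisson and binomial intervals here cover counting error only and take each read as a separate molecule.

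**Figure D1:**
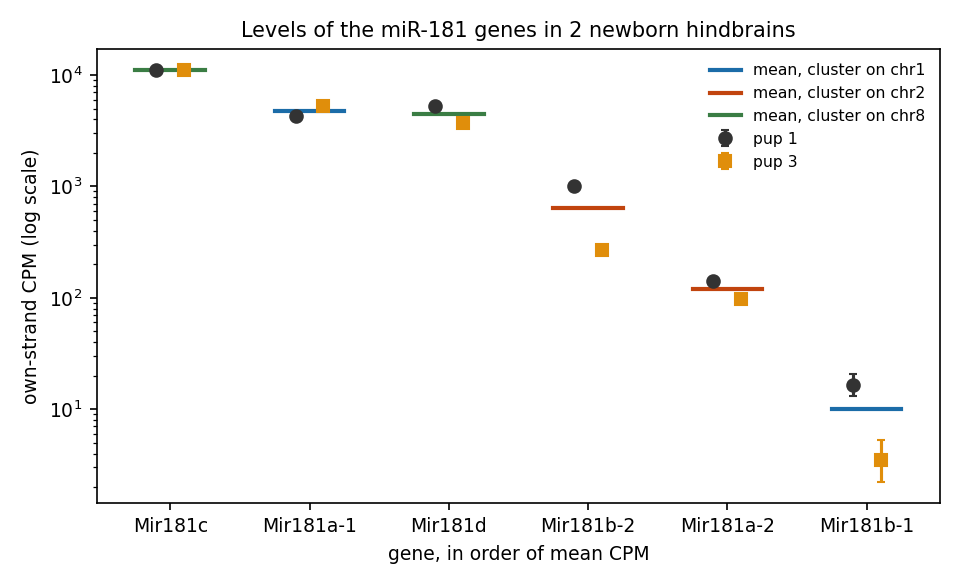
Own-strand CPM of each miR-181 gene (log axis) in pup 1 (circles) and pup 3 (squares), with exact Poisson 95% intervals and the mean as a bar coloured by cluster. Mir181c sits at 11021 and 11029 CPM, while Mir181b-2 and Mir181b-1 show the widest gaps between the pups.

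Within each cluster the split of counts needs no scaling between the libraries. On chromosome 1, Mir181a-1 held 99.6% of the cluster's counts in pup 1 (exact Clopper-Pearson 95% interval 99.5 to 99.7) and 99.9% in pup 3 (99.90 to 99.96). On chromosome 2, Mir181b-2 held 87.8% in pup 1 (86.9 to 88.6) and 73.2% in pup 3 (71.3 to 75.0), which left 12.2% and 26.8% for Mir181a-2. On chromosome 8, Mir181c held 67.8% in pup 1 (67.5 to 68.1) and 74.9% in pup 3 (74.7 to 75.2). In all 3 clusters the gene of the a or c type held a larger share in pup 3, and the intervals of the 2 pups did not overlap.

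**Figure D2:**
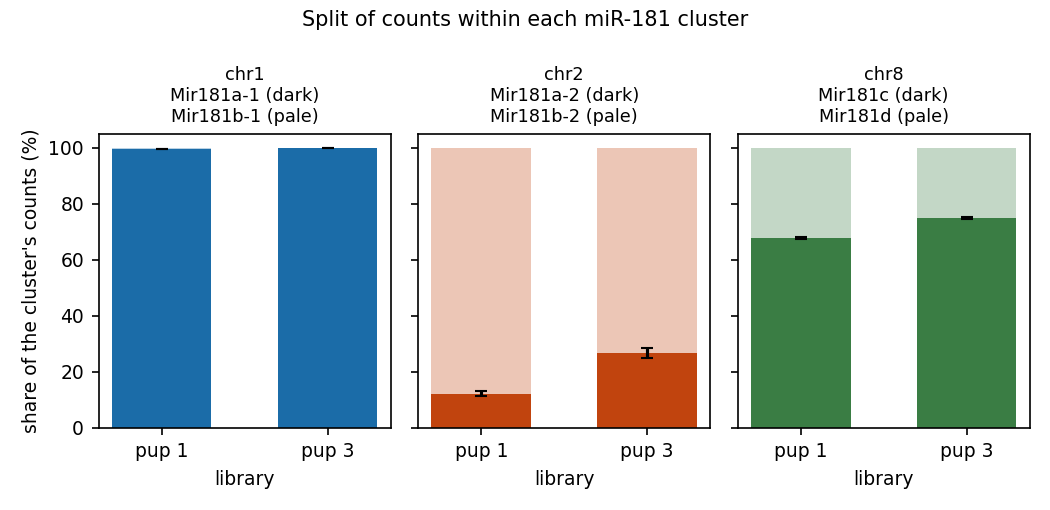
Share of each cluster's own-strand counts (percent) held by its upstream gene (dark) and downstream gene (pale) in each pup, with exact 95% binomial intervals as bars. The pale part on chromosome 1 is 0.386% in pup 1 and 0.0676% in pup 3, and the dark part on chromosome 2 is 12.2% and 26.8%.

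Both miR-181b genes were lower in pup 3 than in pup 1 by more than 2-fold, and no other member differed by that much. In CPM the gap was 4.68-fold for Mir181b-1 and 3.77-fold for Mir181b-2. Each gene's pair of counts was tested with an exact binomial test against the ratio of TMM library sizes, Benjamini-Hochberg adjusted over 508 genes. Genes were called where the adjusted p was under 0.05 and the difference was 2-fold or more. TMM raises log2 differences by 0.14 over library totals, and DESeq2 size factors by 0.23. The test compares these 2 libraries and not conditions, and variation from animal to animal or between preparations does not enter it.

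By this rule 2 of the 6 members were called, both lower in pup 3, where 6.69% of tested genes were called in either direction, 5.71% lower and 0.984% higher. Mir181b-1 had a log2 difference of -1.83 (counting SE 0.35, exact binomial adjusted p = 1.01e-10). Mir181b-2 had one of -1.77 (SE 0.04), with an exact binomial p too small for double precision. Of the 407 detected genes, 2 differed by at least as much as Mir181b-1, itself included, and 3 by at least as much as Mir181b-2. Over all tested genes the calls split into 29 lower and 5 higher, into 25 and 8 with DESeq2 size factors, and into 38 and 4 on library totals.

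The remaining 4 members differed by less than 2-fold. Log2 differences were 0.43 for Mir181a-1 (SE 0.01), 0.14 for Mir181c (SE 0.01), -0.37 for Mir181d (SE 0.01) and -0.38 for Mir181a-2 (SE 0.08). Each passed the adjusted p alone, as did 47.6% of tested genes, since counts of this depth leave little counting error. Absolute differences at least as large as theirs were seen in 30.5% of detected genes for Mir181a-1, 34.9% for Mir181a-2, 35.9% for Mir181d and 70.8% for Mir181c. The median absolute log2 difference was 0.40 over the 6 members and 0.30 over all tested genes. On library totals the difference of Mir181c was 0.00 (exact binomial adjusted p = 0.943), so that its direction rests on the scaling.

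**Figure D3:**
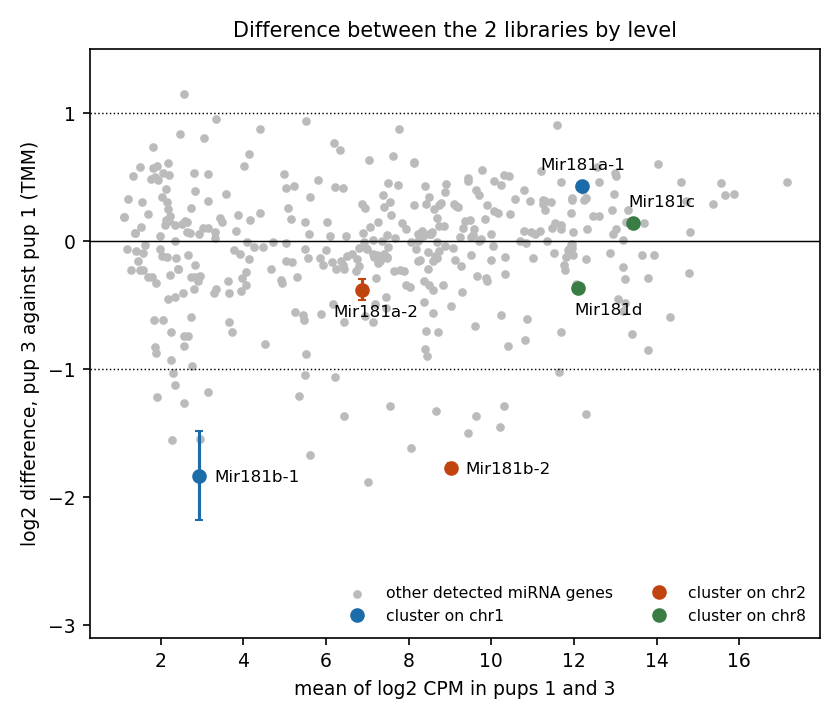
Log2 difference of pup 3 against pup 1 on TMM scaling for the 407 detected miRNA genes, plotted against the mean log2 CPM, with the miR-181 genes coloured by cluster and their counting SE as bars. Mir181b-1 at -1.83 and Mir181b-2 at -1.77 lie below the lower dotted line of a 2-fold difference, and the other 4 members between the dotted lines.

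Grouped by mature sequence, the family divided along the b and d type against the a and c type. Mir181b-1, Mir181b-2 and Mir181d, whose 5p strands share the bases uu after the seed, together held 28.9% of family counts in pup 1 (exact 95% interval 28.6 to 29.2) and 19.5% in pup 3 (19.3 to 19.7). Mir181a-1, Mir181a-2 and Mir181c held the rest, 71.1% and 80.5%. In CPM the b and d type had 6264 in pup 1 and 3959 in pup 3, and the a and c type 15424 and 16341. This grouping was chosen after the values were seen, and Mir181a-2 differed in the direction of the b and d type, with 140 and 97.9 CPM. Reads placed at several loci are left out of these shares.

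The ratio of neighbouring genes was then compared with that of other clustered miRNA genes, since neighbours on 1 strand can come from 1 primary transcript. All 111 pairs of adjacent miRNA genes on 1 strand within 10 kb, with 10 or more counts each, were tested with Fisher's exact test on the 4 counts, adjusted over the 111. A call also required an odds ratio of 2, and log2 odds ratios were computed with 0.5 added to each count. Of these pairs 18.0% were called.

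Of the 3 miR-181 pairs, 2 were called. The ratio of Mir181a-1 to Mir181b-1 was 258 in pup 1 and 1478 in pup 3, a log2 odds ratio of 2.49 (SE 0.34, Fisher's exact adjusted p = 1.41e-15), the second largest in size of the 111. That of Mir181a-2 to Mir181b-2 was 0.139 and 0.366, a log2 odds ratio of 1.39 (SE 0.09, Fisher's exact adjusted p = 5.33e-52), which ranked 11th in size. The ratio of Mir181c to Mir181d was 2.10 and 2.99, a log2 odds ratio of 0.51 (SE 0.02), which was not called and lay near the median size of 0.41. All 3 ratios were higher in pup 3. Pairs that hold a gene whose mature sequence is given for more than 1 gene were called in 9 of 26 cases (34.6%), and pairs whose genes both have a mature sequence of their own in 9 of 79 (11.4%). In the remaining 6 pairs, of which 2 were called, at least 1 gene was not matched by symbol to a mature sequence in RefSeq. These pairs may hold shared sequences too, so that 26 may be too few. Both called miR-181 pairs are of the first kind, and the part of shared sequence in these calls was not tested.

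**Figure D4:**
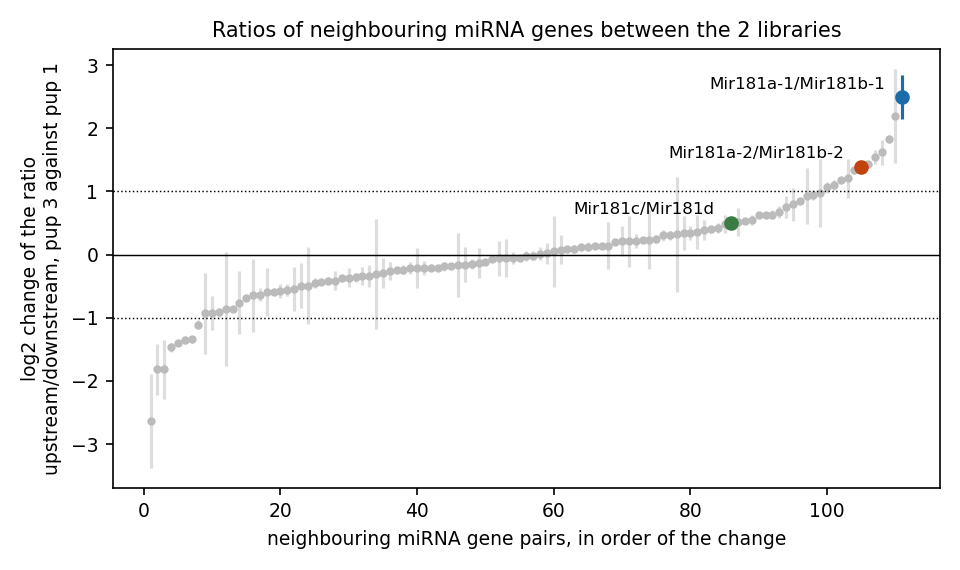
Log2 change of the upstream to downstream ratio, pup 3 against pup 1, for 111 pairs of neighbouring miRNA genes in order of the change, with counting SE as bars and dotted lines at a 2-fold change. The miR-181 pairs on chromosomes 1 and 2 lie above the upper line at 2.49 and 1.39, and the pair on chromosome 8 at 0.51 lies below it.

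In reads that could be placed at 1 locus, the 2 copies that encode 1 mature 5p sequence were counted at very unequal levels. Reads placed at several loci are left out, so the gaps are of counted reads and not of each copy's output. Mir181a-1 had 39.8 times the mean CPM of Mir181a-2, and Mir181b-2 had 63.6 times that of Mir181b-1. So the higher copy was on chromosome 1 for miR-181a and on chromosome 2 for miR-181b. RefSeq gives 54 mature sequences for 2 or more genes, and in 24 sets of genes, matched by symbol, at least 2 copies had 10 or more counts. Any copies that the symbol match missed are not in these sets. Sharing of any mature strand made a set, so Mirlet7c-2 was set both with Mirlet7c-1 (let-7c-5p) and with Mirlet7a-1 (let-7a-1-3p). Over these sets the median gap between the highest and the lowest copy was 4.24-fold. Those of miR-181b and miR-181a ranked 3rd and 4th, after Mir9-3 over Mir9-2 and Mir194-2 over Mir194-1.

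In both pups Mir181b-1 held a like small share of the miR-181b counts, 1.61% in pup 1 (exact 95% interval 1.28 to 2.00) and 1.30% in pup 3 (0.818 to 1.96), and these intervals overlap. Mir181a-2 held 3.19% of the miR-181a counts in pup 1 (2.96 to 3.43) and 1.84% in pup 3 (1.70 to 1.99), and these do not. Summed over both loci, the miR-181b genes came to 1024 CPM in pup 1 and 271 in pup 3, and the miR-181a genes 4403 and 5311 CPM. These sums leave out reads that match both loci, so they are not totals of the mature miRNAs.

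**Figure D5:**
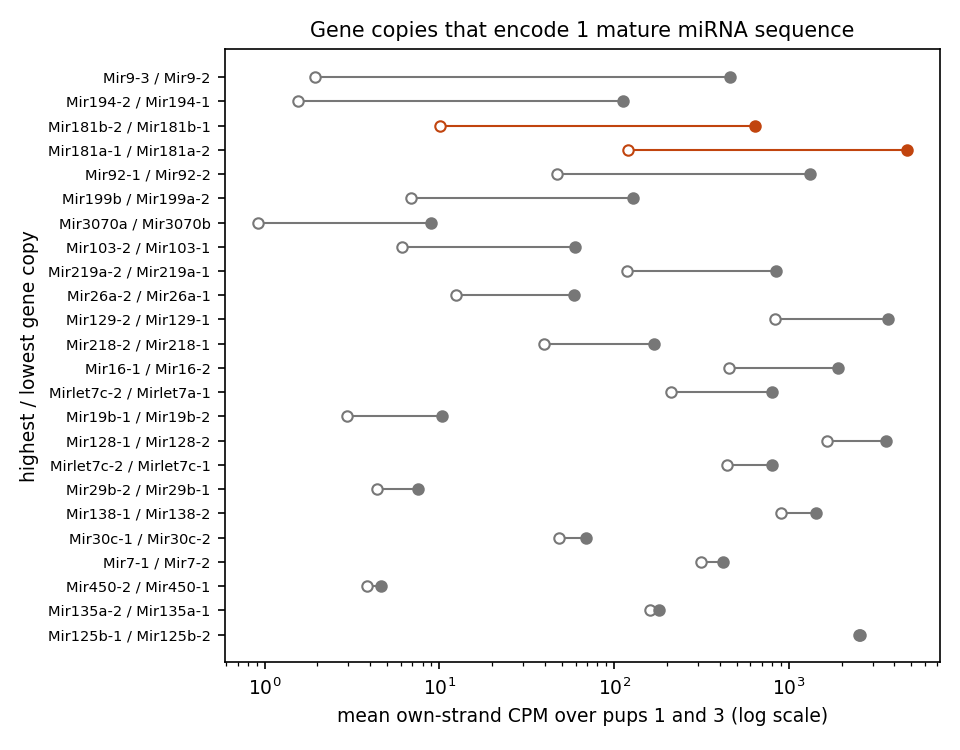
Mean own-strand CPM over both pups (log axis) of the highest (filled) and lowest (open) gene copy for 24 sets of genes. The genes of a set share a mature sequence, and sets are ordered by the gap, with the miR-181 sets in orange. The miR-181b copies lie 63.6-fold apart and the miR-181a copies 39.8-fold, against a median of 4.24-fold. Reads placed at several loci are not counted.

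The detected genes most like each member were those at the smallest distance in log2(CPM + 1) over the 2 libraries, which is likeness over 2 points. For Mir181c they were Mir137 (11363 and 11340 CPM in pups 1 and 3) and Mir135b. For Mir181a-1 they were Mir106b (4335 and 5202 CPM) and Mir598, and for Mir181d Mir484 (5012 and 3608 CPM) and Mir324. For Mir181a-2 they were Mir155 (142 and 101 CPM) and Mir212. Mir181b-2 had no near match, with Mirlet7c-2 (1215 and 390 CPM) and Mir16-2 at distances of 0.60 and 0.61. For Mir181b-1 they were Mir124a-1 (14.9 and 4.01 CPM) and Mir5113. Mirlet7c-2 and Mir16-2 also share a mature sequence with another gene, by symbol in RefSeq. That match did not reach every tested gene, so sharing by the other genes named here may be missed.

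Other miRNA genes of the same settings were taken from chosen lists. Of 18 neuronal miRNA genes with counts, led by Mir137, Mir129-2 and Mir128-1, 15 were detected. The 18 summed to 32283 CPM in pup 1 and 30068 in pup 3, with a median log2 difference of -0.11. Of them 4 (Mir138-1, Mir138-2, Mir124a-1 and Mir124a-3) were called lower in pup 3 and 0 higher. Over all tested genes 5.71% were called lower and 0.984% higher. Mir138-1 and Mir138-2 encode the same mature 5p sequence. Mir124a-1 and Mir124a-3 were in none of the 24 sets of copies matched by symbol, and that match may have missed them. Tested genes that share a mature sequence by symbol were called in 21.2% of cases, all lower in pup 3. All 10 genes linked to lymphocyte development, led by Mir17, Mir342 and Mir20a, were detected. They summed to 28630 CPM in pup 1 and 19156 in pup 3, with 1, Mir342, called lower in pup 3 (8391 and 2982 CPM). The leukocyte and microglia list summed to 1019 CPM in pup 1 and 730 in pup 3, with all 5 counted genes detected, led by Mir150, Mir223 and Mir146. Mir142 had no entry. The sum of these 5 genes was below the level of Mir181c in both pups, and that of the lymphocyte list above it. Members of the lymphocyte list differed widely in level, from Mir17 at 11119 and 8243 CPM to Mir19b-1 at 12.2 and 8.34 CPM. Mir150 had 488 and 300 CPM. Which cells supplied the miR-181 counts was not tested. The erythroid list (Mir451a, Mir144 and Mir486) summed to 498 and 308 CPM. Of its genes Mir451a had 461 CPM in pup 1 and 258 in pup 3, while Mir144 had 16.1 and 27.7 CPM and Mir486 20.6 and 22.0 CPM, a median log2 difference of 0.22. The vessel list (Mir126a, Mir143 and Mir145a) summed to 55322 and 65476 CPM. The oligodendrocyte list (Mir219a-2, Mir338 and Mir219a-1) summed to 1776 and 1649 CPM. The choroid plexus and ciliated cell list, led by Mir204, Mir449a and Mir34c, summed to 19022 and 17194 CPM. Genes in the Hox clusters, which mark hindbrain position, summed to 52550 CPM in pup 1 and 34975 in pup 3, with Mir10a, Mir10b and Mir615 the highest and 4 of 5 detected. No gene of these last 6 lists was called in the exact binomial test. Apart from the vessel list, the sum of each list in CPM on library totals was lower in pup 3. On TMM, which raises log2 differences by 0.14, the median log2 differences ran from -0.30 (Hox clusters) to 0.36 (vessel). That of the oligodendrocyte list was 0.05 and that of the erythroid list 0.22. Mir150, Mir146 and Mir155 are in both the lymphocyte and the leukocyte list. The part of other cell types in the differences of the miR-181 genes was not tested.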

How the data were processed

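The authors deposited 1 table per library of raw read counts, by miRNA gene and without normalization or pooling. The assembly was mm10 and the annotation M4, per the deposited text notes. Which aligner and counter were used is not given in the sources used here. Own-strand counts were used. Rows that name no gene (unmapped 17.7% and 13.9%, several places 37.9% and 39.4%, no feature on either strand 2.66% and 1.59% of the reads in the tables of pups 1 and 3) stayed out of totals and tests. Identifiers were matched without version to GENCODE M21 (1894 of 1973 genes) and sequences by symbol to RefSeq on GRCm38.p6.

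TMM factors came from edgeR 4.0.16 and size factors from DESeq2 1.42.0. Tests ran in SciPy 1.17.1 on genes whose summed counts reached 10, and log2 differences used a pseudocount of 1 CPM. Folding energies came from RNAfold 2.7.2. Both test steps were tested on simulated counts with counting error only, so spread between animals or preparations was not covered. The labels number the pups 1 and 3 but give both the same donor identifier, and which animals that identifier covers was not settled here. With 1 group no test between conditions exists. P-values measure counting error only. A count of 0 would allow 0.611 CPM in pup 1 and 0.481 CPM in pup 3 (3 counts).

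The members, lists and tests were chosen with earlier results of these data known. Named are the 6 members, the 2 detected genes most like each in level, and the 3 highest genes of each list. Other genes in the set of shared mature sequences, and the called neuronal genes, were named after their values were seen. Alternatives covered strand, scaling, count minimum, pseudocount, neighbour distance, detection level and leaving out each pup.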

Additional observations from a re-analysis of the deposited data

How the results depend on the processing

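The direction and call of every member's difference between the pups held under DESeq2 size factors, library totals, no count minimum, a minimum of 100 counts, a pseudocount of 0.5 CPM and any-strand counts, apart from the direction of Mir181c, whose difference was 0.00 on library totals (exact binomial adjusted p = 0.943). Those of the 3 neighbouring ratios held under neighbour distances of 2 and 50 kb, a minimum of 100 counts and any-strand counts. Over all genes the calls fell from 34 to 18 with the minimum of 100 counts, which tests 317 genes, with 18 lower and 0 higher against 29 and 5. DESeq2 size factors gave 25 lower and 8 higher, and library totals 38 lower and 4 higher. Per 1000000 reads of the whole table the means were 1998 for Mir181a-1, 49.7 for Mir181a-2, 4633 for Mir181c, 1864 for Mir181d, 2002 for the chromosome 1 cluster, 6496 for the chromosome 8 cluster and 8810 for the family, lower by construction. Mir181c was 11038 CPM on TMM, 11060 CPM with DESeq2 size factors and 10672 CPM on any strand, beyond its small SD. At detection levels of 5 and 10 CPM, 5 of the 6 members were detected, Mir181b-1 being the exception. With 1 pup left out no difference between pups exists, and no paired analysis was possible because the series has 1 group. The 22 counts of Mir181b-1 in pup 3 set the precision of its difference.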

Other observations

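Genes that, by symbol in RefSeq, share a mature sequence with another gene made up 52 of the 508 genes tested between the libraries. Of them 11 were called (21.2%), Mir181b-1 and Mir181b-2 among them, and all 11 were lower in pup 3. Of 407 tested genes with a mature sequence of their own 18 were called (4.42%), 14 of them lower. The remaining 49 tested genes were not matched by symbol to a mature sequence, and 5 of them were called (10.2%), 4 lower. Some of these 49 may share a sequence too, so that 52 may be too few. In 18 of the 24 sets of copies the highest and the lowest copy differed between the pups in the same direction, as the miR-181b copies did and the miR-181a copies did not. Reads at several places made up a slightly larger part of the table of pup 3 (39.4%) than of pup 1 (37.9%). The part of these reads in the lower counts was not tested.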
